A study of Equus caballus with 6 samples.

Results

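The genes described here are 6 genes of leukocyte adhesion, egress from lymphoid tissue and contractility: SELPLG, CD44, ITGAX, ITGA9, S1PR1 and ROCK1. Their 18 array probes were found through the horse RefSeq transcript that each probe carries, among 43603 probes in all and 829 genes that could be given a symbol. The group was selected on earlier results of these arrays, with measured values of the comparison after against before exercise known. In that comparison the values of the 6 genes are therefore a description with no test.

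Circulating leukocytes leave the blood by rolling on the vessel wall through selectins and their ligands, arresting there through integrins, and then crawling through the wall with force from actin and myosin. Lymphocytes return to the blood from lymphoid tissue by following sphingosine 1-phosphate, a lipid that is abundant in plasma. Exercise is known to bring leukocytes from vessel walls and lymphoid reservoirs into the circulation, so that the mixture of cells in a blood sample can change within a short time.

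Total RNA was measured with a 1-colour Agilent horse array in buffy coat, the layer of white cells in spun blood. The animals were 3 healthy warmblood geldings, each sampled from the jugular vein after and before exercise, and the question was which transcripts differ after exercise. The group after exercise held 1 array each of horse 1 (11 years), horse 2 (7 years) and horse 4 (15 years), and the group before exercise held 1 array each of the same horses. The age of horse 2 lies outside the range of 9 to 17 years that the series text gives. The after-exercise labels carry 60 min, whereas the protocol describes sampling directly after the exercise, and which of these holds cannot be told. The kind and length of the exercise are not given in the sources used here.

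Levels are log2 of the processed signal minus the 75th percentile of the same array, so that 0 marks a probe as bright as that percentile. Between 64.1% and 69.4% of spots were well above background and 0 were saturated. The 75th percentile of the signal was lowest on the horse 4 array after exercise, at 1124, and lay between 1753 and 2536 on the other 5. The before-exercise arrays of horses 1 and 2 lay on slide 2 and all others on slide 1. Exercise cannot be told apart from slide in horses 1 and 2, while both arrays of horse 4 lay on slide 1. In the limma comparison of the groups, 0 of 29570 probes passed an adjusted p of 0.05 (0%), and 855 had an unadjusted p under 0.05. The median change over all probes was 0.04, with quartiles of -0.16 and 0.20. CD53, the only one of 5 leukocyte markers matched to a probe, was well above background on all 6 arrays, and the haemoglobin genes HBB and HBA2 were also measured.

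Of the 18 probes, 17 were kept, and all 17 were well above background on every array. The other was the second ITGA9 probe, which was well above background on 0 of 6 arrays. After exercise S1PR1 was higher in all 3 horses by both of its probes, and ROCK1 was lower in all 3 horses by 4 of its 5 probes. SELPLG and CD44 were higher in horses 1 and 2 and lower in horse 4. ITGAX gave different pictures by different probes, and ITGA9 was lower in horses 1 and 2 and higher in horse 4. Among the 17 probes, 2 were higher in all 3 horses, against 17.3% of 29351 probes, and 5 were lower in all 3, against 11.5%. The 3 arrays after exercise lay all above the 3 before for 0 of the 17, against 3.51% of probes, and all below for 4, against 3.8%. These 4 are all probes of 1 gene, ROCK1, and make up 4 of the 5 that were lower in all 3 horses. The 2 that were higher in all 3 are both of S1PR1. The values chose the genes, so nothing is read from these counts.

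**Figure D1:**
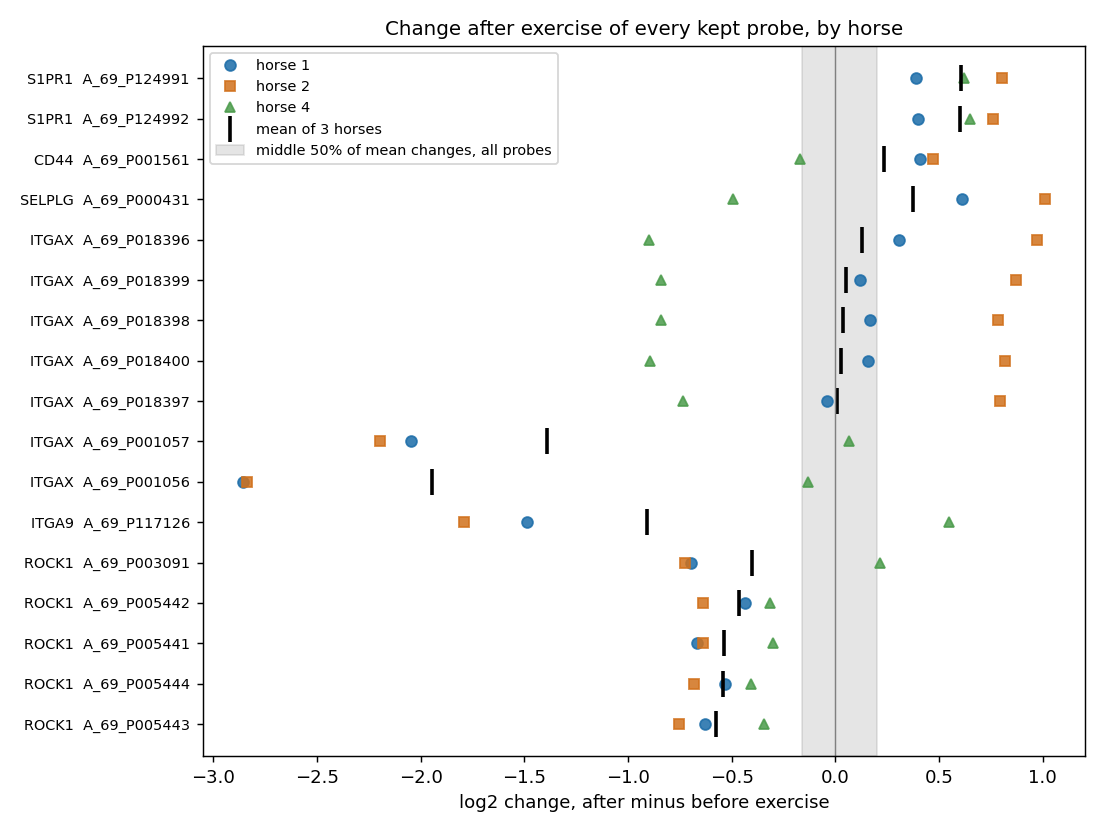
Log2 change, after minus before exercise, of the 17 kept probes (rows) on the x axis, with a point for each horse, a black bar for the mean of 3 horses and a grey band for the middle 50% of the mean changes of all probes (-0.16 to 0.20). Both S1PR1 probes lie right of 0 and 4 ROCK1 probes left of 0 in every horse, while horse 4 lies on the other side of 0 from horse 2 for SELPLG, CD44, ITGA9, 6 of 7 ITGAX probes and the fifth ROCK1 probe.

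SELPLG encodes the P-selectin ligand with which leukocytes tether to activated endothelium and platelets. Its only probe, A_69_P000431, had levels of -0.17, -0.16 and -0.25 after exercise in horses 1, 2 and 4, against -0.78, -1.18 and 0.24 before. The levels after exercise lay within 0.09 of each other, while those before spanned 1.42, and the horse 4 array before exercise was the highest of the 6. The changes were 0.61, 1.01 and -0.49 in horses 1, 2 and 4, with a mean of 0.38 ± 0.78 (SD, n = 3), which is 1.30-fold. The mean change was smaller than its spread over the horses.

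CD44, the receptor with which leukocytes bind hyaluronan, had 1 probe, A_69_P001561. Its levels were 4.21, 4.28 and 4.15 after exercise in horses 1, 2 and 4, against 3.80, 3.81 and 4.31 before. As for SELPLG, the horse 4 array before exercise was the highest, and the groups overlapped through it alone. The changes were 0.41, 0.47 and -0.17, with a mean of 0.24 ± 0.35 (SD, n = 3), or 1.18-fold.

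The means of several lists of blood cell markers had the same signs over the horses as SELPLG and CD44, though not every marker in them did. CD53, a tetraspanin of leukocytes in general, had changes of 0.24, 0.41 and -0.27 in horses 1, 2 and 4, with levels of 3.73 to 3.91 after and 3.33 to 4.18 before exercise. The mean level of the 3 measured of 12 neutrophil markers (FCAR, LTF and MMP9) ran from 2.37 to 2.75 after and from 1.47 to 2.96 before exercise, and changed by 0.15, 0.95 and -0.21. For the 5 measured of 10 monocyte markers (CD14, CD68, CSF1R, TIMP1 and TLR4) the range was 1.46 to 2.09 after and 1.04 to 1.76 before exercise, with changes of 0.53, 0.42 and -0.12.

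The 5 measured of 10 NK and cytotoxic cell markers (CCL5, GNLY, GZMB, KLRD1 and NCR1) ran from 2.36 to 2.68 after and from 1.94 to 2.99 before exercise, and changed by 0.41, 0.41 and -0.31. For 3 of 12 T cell markers (CD2, CD28 and IL7R) the range was -1.04 to -0.65 after and -1.71 to -0.18 before exercise, with changes of 0.14, 0.67 and -0.46. Gene by gene, 10 of the 17 markers in these 5 lists were higher in horses 1 and 2 and lower in horse 4, as SELPLG and CD44 were. In horse 4, FCAR (0.41), MMP9 (0.12), TIMP1 (0.45), CD68 (0.48) and GNLY (0.38) were higher after exercise, and the neutrophil mean was negative there through LTF (-1.16). NCR1 (-0.44), FCAR (-0.09) and IL7R (-0.06) were lower in horse 1, and CD68 (-0.44) in horse 2. All listed markers that were measured were well above background on all 6 arrays. ITGB3 of the platelet list and SLC4A1 of the red cell list had matched probes that were too dim to be kept. The part of these cells in the values of the adhesion genes was not tested. In bulk samples, fewer cells of a type and less RNA per cell cannot be told apart.

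ITGAX encodes the alpha subunit of a beta-2 integrin of monocytes, dendritic cells and neutrophils that binds complement fragments and fibrinogen in humans and mice. Its 7 probes carry the same transcript identifier and fell into 2 sets, described here after their values were seen. The brightest, A_69_P018399, belongs to a set of 5 and had levels of -0.54, -0.04 and -0.70 after exercise in horses 1, 2 and 4, against -0.66, -0.91 and 0.15 before. Horse 2 was highest after exercise and horse 4 before, and the groups overlapped. The changes of this probe were 0.12, 0.87 and -0.84, with a mean of 0.05 ± 0.86 (SD, n = 3), or 1.04-fold.

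The other 4 probes of this set followed it closely. After each probe's own mean was taken off, the 5 differed by at most 0.22 on any array. Their changes ran from -0.04 to 0.31 in horse 1, from 0.78 to 0.97 in horse 2 and from -0.90 to -0.73 in horse 4, and their mean changes from 0.01 to 0.13. The direction thus differed between horses 2 and 4 by every one of the 5 probes.

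The 2 remaining ITGAX probes had another pattern. A_69_P001056 had levels of -2.87, -2.44 and -2.74 after exercise in horses 1, 2 and 4, against -0.01, 0.39 and -2.61 before. In processed signal these are 267.7, 412.5 and 168.2 after, against 1787.1, 3329.7 and 287.5 before. The arrays of horses 1 and 2 from before exercise, which are those of slide 2, stood above the other 4, and the groups did not separate, since the horse 4 array before exercise lay among those after.

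The changes of A_69_P001056 were -2.86, -2.84 and -0.13 in horses 1, 2 and 4, with a mean of -1.94 ± 1.57 (SD, n = 3), or 0.260-fold. A_69_P001057 had levels of -3.65, -3.59 and -3.62 after exercise, against -1.60, -1.39 and -3.69 before, and changes of -2.05, -2.20 and 0.06. Its mean was -1.39 ± 1.26 (SD, n = 3), or 0.381-fold. Within slide 1, where 3 arrays after exercise can be set against the horse 4 array before it, these 2 probes differed by -0.08 and 0.07, and the other 5 by -0.61 to -0.53. One symbol thus covered 5 probes with mean changes near 0 and 2 with means of -1.94 and -1.39, and no single ITGAX change is given.

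**Figure D2:**
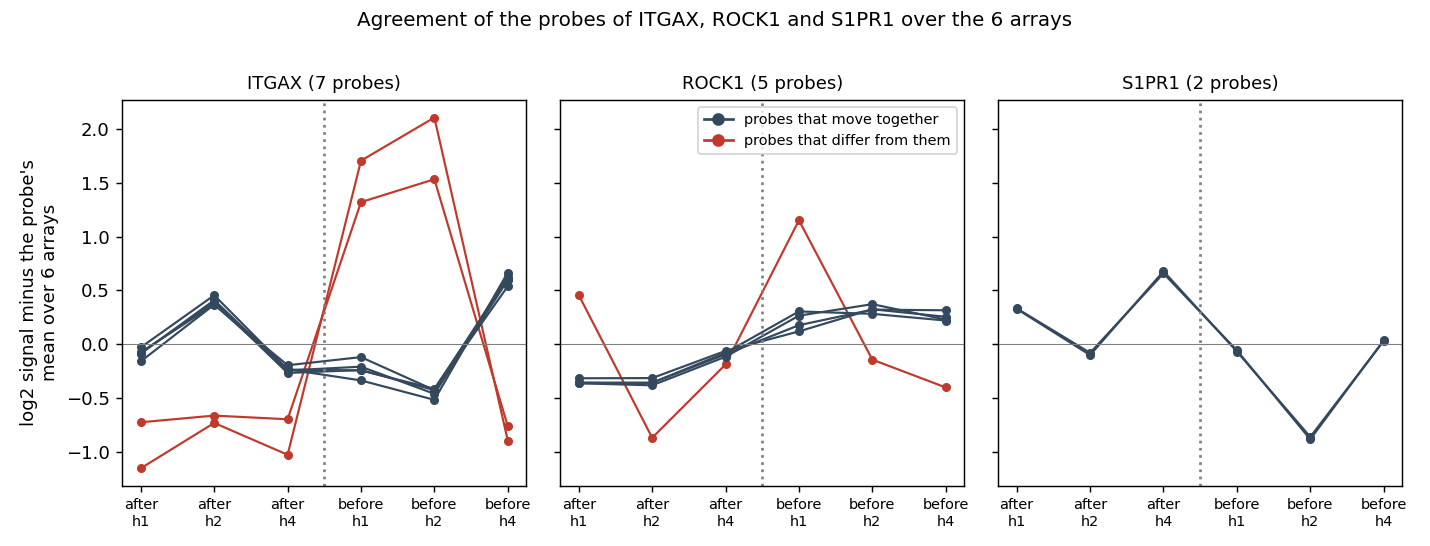
Log2 level of every kept probe of ITGAX, ROCK1 and S1PR1 minus that probe's mean over 6 arrays (y axis), with the arrays after exercise left of the dotted line and those before it right (h1, h2 and h4 are the horses). The 5 dark ITGAX probes lie within 0.22 of each other and the 2 red ones are high only on the 2 slide 2 arrays, 4 ROCK1 probes lie within 0.19 of each other and the fifth departs, and both S1PR1 probes nearly coincide.

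ITGA9 encodes an alpha subunit that pairs with beta-1 and binds VCAM1 and tenascin, and on human neutrophils it takes part in adhesion and migration. Its kept probe, A_69_P117126, had levels of -3.79, -3.96 and -3.51 after exercise in horses 1, 2 and 4, against -2.31, -2.17 and -4.06 before. As with the last pair of ITGAX probes, the 2 arrays of slide 2 were the highest, and the horse 4 array before exercise was the lowest of the 6. In processed signal the probe stood at 140.6, 144 and 98.6 after exercise, against 363.1, 563.4 and 105.2 before.

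The changes of ITGA9 were -1.49, -1.79 and 0.55, with a mean of -0.91 ± 1.27 (SD, n = 3), or 0.532-fold. The mean was negative through horses 1 and 2, whose arrays lay on different slides. With slide as a block the difference was 0.30. That fit sets the 3 arrays after exercise against the horse 4 array before it, on slide 1. In the pair of horse 4 alone the change was 0.55. Among the arrays before exercise, slide and horse cannot be told apart, and the part of the slide in the ITGA9 values was not tested. The second ITGA9 probe, A_69_P117127, was not well above background on any array, with processed signals of 4.1 to 5.2 after and 5.1 to 6.8 before exercise, and no fold is given for it.

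S1PR1 is the receptor for sphingosine 1-phosphate that lets lymphocytes leave lymph nodes and thymus, and it is also carried by endothelial cells. The brighter of its probes, A_69_P124991, had levels of 0.85, 0.43 and 1.17 after exercise in horses 1, 2 and 4, against 0.46, -0.37 and 0.55 before. Each horse was higher after exercise, but the groups overlapped, because horse 2 after exercise lay below horses 1 and 4 before it. The changes were 0.39, 0.80 and 0.62, with a mean of 0.61 ± 0.21 (SD, n = 3), or 1.52-fold.

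The spread of the S1PR1 change over horses was below the median of 0.33 for all probes. Its mean change lay above the upper quartile of 0.20 of the mean changes. S1PR1 was chosen with these values known, so nothing is read from either. The second probe, A_69_P124992, had changes of 0.40, 0.76 and 0.65 and a mean of 0.60 ± 0.19 (SD, n = 3), or 1.52-fold. The 2 probes differed in change by 0.04 at most in any horse. Within slide 1 the 3 arrays after exercise averaged 0.27 above the horse 4 array before it by either probe.

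The scaling of the arrays mattered for the S1PR1 value of horse 4. Without any scaling between arrays, A_69_P124991 had changes of 0.51, 0.63 and -0.02 in horses 1, 2 and 4, while all probes had median changes of 0.14, -0.07 and -0.64. Relative to all probes of the same animal, S1PR1 was thus higher in horse 4 as well, but its unscaled signal was 2531.2 after and 2564.9 before exercise. T cells carry S1PR1, and the mean of the T cell markers changed by -0.46 in horse 4, where S1PR1 changed by 0.62, and by 0.14 and 0.67 in horses 1 and 2. S1PR1 was the only one of 22 genes listed for lymphocyte egress and homing that a probe could be matched to by its RefSeq transcript, and the others were not analysed here.

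ROCK1 is a kinase that acts below the GTPase RhoA and raises myosin phosphorylation, by which leukocytes retract their rear and squeeze through the vessel wall. Its brightest probe, A_69_P005441, had levels of -0.20, -0.20 and 0.08 after exercise in horses 1, 2 and 4, against 0.47, 0.44 and 0.38 before. All 3 arrays after exercise lay below all 3 before it, and the levels before exercise lay within 0.08 of each other. The changes were -0.67, -0.64 and -0.30, with a mean of -0.54 ± 0.21 (SD, n = 3), or 0.690-fold.

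Probes A_69_P005442, A_69_P005443 and A_69_P005444 had mean changes of -0.46 ± 0.16, -0.58 ± 0.21 and -0.54 ± 0.14 (SD, n = 3 horses), or 0.725-fold, 0.671-fold and 0.688-fold. With A_69_P005441 they differed by at most 0.19 on any array after each probe's mean was taken off, and the groups did not overlap by any of the 4. Over these 4 probes the change ran from -0.67 to -0.44 in horse 1, from -0.75 to -0.64 in horse 2 and from -0.41 to -0.30 in horse 4. The order of the horses depended on the scaling: horse 4 had the smallest change by all 4 probes here, but the largest without scaling (-1.05 to -0.94).

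The direction of these ROCK1 probes was the same within slide 1. There the arrays after exercise differed by -0.58 to -0.49 from the horse 4 array before it. The horse 4 array before exercise lay between -0.09 and 0.07 from the mean of the 2 slide 2 arrays before exercise. The corresponding gap was -2.80 and -2.19 for the pair of ITGAX probes that stood high on slide 2. These comparisons rest on the horse 4 array, the only before-exercise array on slide 1. Among the arrays before exercise, slide and horse cannot be told apart, and the part of the slide in the ROCK1 values was not tested. Without scaling between arrays, A_69_P005441 had changes of -0.55, -0.82 and -0.94, and its groups did not overlap under the 75th percentile, median, quantile, normexp or unscaled values.

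The fifth ROCK1 probe, A_69_P003091, did not follow the others. Its levels were -1.04, -2.36 and -1.68 after exercise in horses 1, 2 and 4, against -0.34, -1.64 and -1.90 before. Horse 1 was highest and the groups overlapped widely. The changes were -0.70, -0.73 and 0.21, with a mean of -0.40 ± 0.53 (SD, n = 3), or 0.757-fold, and within slide 1 the difference was 0.20.

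**Figure D3:**
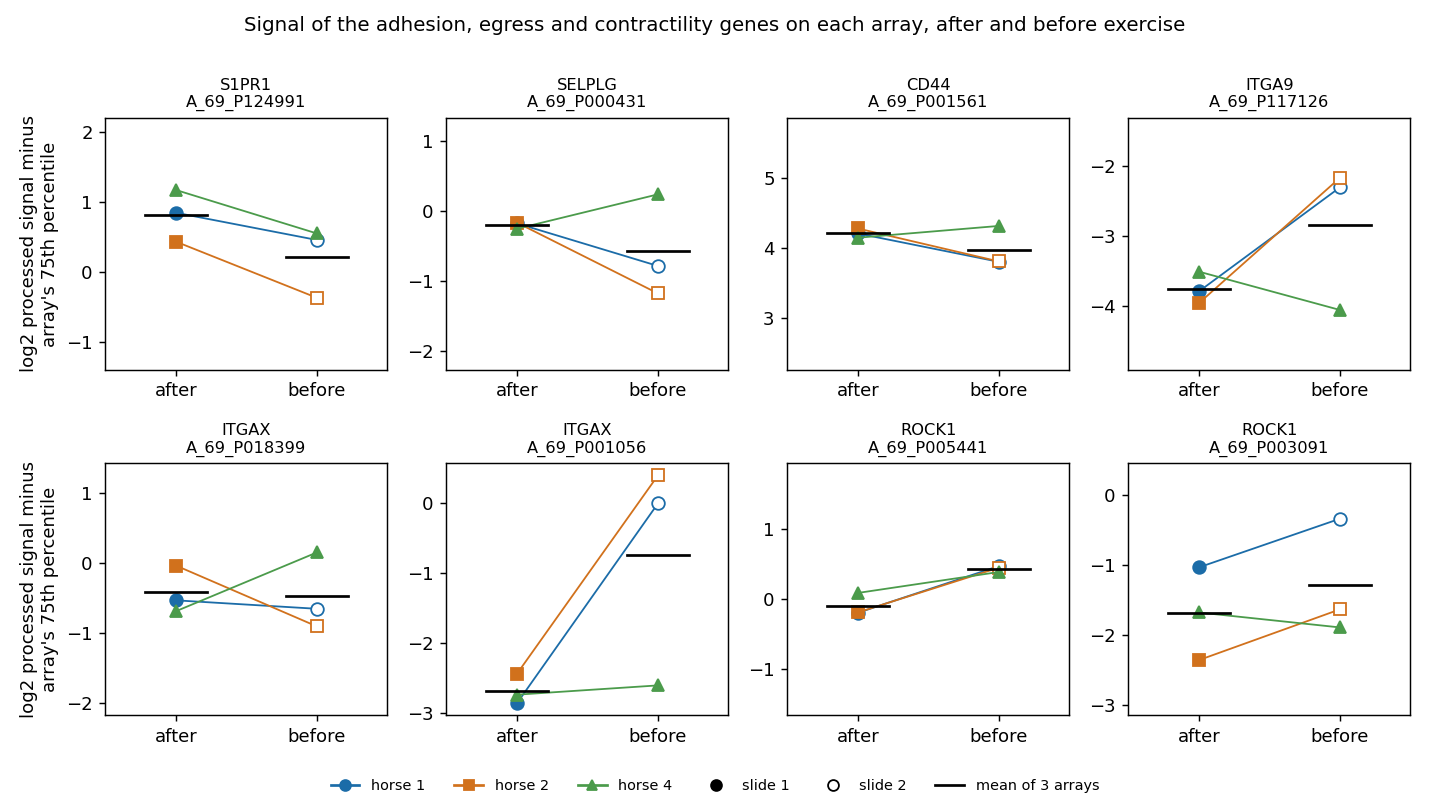
Log2 processed signal minus the array's 75th percentile (y axis, the same length of scale in every panel) after and before exercise for 8 probes, with lines joining the arrays of a horse, filled symbols for slide 1, open symbols for slide 2 and black bars for the mean of 3 arrays. For A_69_P005441 of ROCK1 the after values (-0.20, -0.20 and 0.08) lie below all before values, and for A_69_P001056 of ITGAX only the open symbols of slide 2 (-0.01 and 0.39) stand high.

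The weight given to single arrays decided whether the probes of these genes were called. With array weights in limma, 1638 probes were called (5.54% of 29570), among them 6 of the 17: both ITGAX probes that stood high on slide 2, the ITGA9 probe, and A_69_P005441, A_69_P005443 and A_69_P005444 of ROCK1, all lower after exercise. Without the horse 4 array before exercise, 595 were called (2.01% of 29569), among them the same pair of ITGAX probes and the ITGA9 probe. That fit sets slide 1 after exercise against slide 2 before it, and cannot tell one effect from the other. The weighted fit had no term for slide either. Since slide 2 held only arrays from before exercise, its calls cannot be fully told apart from slide. Since the genes were chosen on this comparison, nothing is read from either count.

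Whether the genes differed between the 3 horses is a question that did not choose them. It was tested with limma's F-test with exercise in the model, on 2 arrays a horse. Slide 2 held arrays of horses 1 and 2 only, and slide was not in the model. A difference of horse 4 from the other horses thus cannot be fully told apart from slide. Of 29567 probes, 70 passed (0.237%), and of the 17 probes 0 passed, while 4580 of all probes had an unadjusted p under 0.05. The smallest adjusted p was 0.26, for A_69_P003091 of ROCK1, whose mean level was -0.69 in horse 1, -2.00 in horse 2 and -1.79 in horse 4. S1PR1 followed with an adjusted limma p of 0.27 by each probe, and A_69_P124991 averaged 0.65 in horse 1, 0.03 in horse 2 and 0.86 in horse 4.

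For the other ROCK1 probes the adjusted limma p between horses ran from 0.77 to 0.93. It was 0.80 for CD44, 0.60 for SELPLG, 0.69 for ITGA9, 0.48 and 0.51 for the 2 ITGAX probes that stood high on slide 2, and 0.85 to 0.88 for the other 5. With 2 arrays a horse, these p-values do not show that the horses were alike. Of the 17 probes, only A_69_P001056 of ITGAX passed in any alternative run. It did so in limma's fit across all probes without the horse 4 array after exercise. Horse 4 is then left with its array before exercise alone, on slide 1, while those of horses 1 and 2 lay on slide 2. In that fit horse 4 cannot be told apart from slide, so nothing is read from it.

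Other genes of the same processes were taken from 4 lists of 124 genes, of which 18 could be matched to a probe by RefSeq transcript and 14 passed the filter on dim probes, 6 of them the genes above. Of the 8 others, limma called 0 higher and 0 lower after exercise, with a smallest adjusted p of 0.999, beside 0% of all probes called. Their mean change was positive for 6 and negative for 2, with a median of 0.10 against 0.04 over all probes, and the median was 0.21, 0.38 and -0.19 in horses 1, 2 and 4.

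For these genes the SE is that of limma's fit without pairing by horse. It is not the spread of the changes over the horses. Among adhesion genes, ITGA5, the alpha subunit of a fibronectin receptor, had a mean change of 0.15 (SE 0.27). The ITGA5 changes were 0.65, 0.36 and -0.57 in horses 1, 2 and 4. ITGA2B, the platelet fibrinogen receptor subunit, had 0.28 (SE 0.61), and PECAM1, a junction protein of endothelium and leukocytes, 0.05 (SE 0.23). SELP, the P-selectin that SELPLG binds, had -0.11 (SE 0.21), and MMP9, a neutrophil gelatinase, 0.23 (SE 0.30).

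In the contractility list ROCK1, by its brightest probe though not by A_69_P003091, was the only one of 4 measured genes with a negative change in all 3 horses. Of all probes, 11.5% of 29351 were lower in all 3 horses. ROCK1 was chosen with this comparison known, so nothing is read from its place in the list. ACTB, cytoplasmic actin, had changes of 0.28, 0.55 and 0.10, with a mean of 0.31 (SE 0.39, from limma's fit without pairing by horse, as below). VIM, an intermediate filament protein, had a mean of 0.02 (SE 0.20), and TPM3, a tropomyosin, -0.01 (SE 0.37). The mean change had the other sign by 1 of 3 kept VIM probes and by 1 of 2 kept TPM3 probes. ITGB3, VCAM1, HAS2 and SELE had matched probes that were too dim to be kept.

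The means of the remaining marker lists had other signs. Platelet markers (ITGA2B, SELP and SPARC, 3 of 9) averaged 0.43 to 2.01 after and 0.24 to 1.91 before exercise, with changes of 0.10, 0.18 and 0.11 in horses 1, 2 and 4. Within that list ITGA2B had 0.25, 0.83 and -0.23, the signs of SELPLG and CD44, and SELP had -0.14, -0.03 and -0.15. Red cell markers (HBA2 and HBB, 2 of 9) averaged 3.75 to 7.91 after and 1.27 to 7.67 before, with changes of 0.91, 2.48 and 0.24, the same sign as S1PR1 in all 3 horses. B cell markers (FCER2, PAX5 and TNFRSF13C, 3 of 9) averaged -2.43 to -2.23 after and -2.58 to -1.97 before, with changes of -0.26, -0.22 and 0.15. Eosinophil and basophil markers (FCER1A and IL4, 2 of 8) averaged -1.22 to -0.61 after and -1.72 to -0.35 before, with changes of -0.26, 0.16 and 0.50. The part of these cells in the ROCK1 and S1PR1 values was not tested.

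The genes with the most similar pattern over the 6 arrays were taken from 555 named genes by the root mean square difference after each gene's mean was removed. For ROCK1 they were TMCO2 (0.09), GPX6 (0.13) and TRIM59 (0.14), beside an SD of 0.31 of ROCK1 itself over the arrays. In horse 4 TMCO2 changed by -0.36, but GPX6 by 0.06 and TRIM59 by 0.08, against -0.30 for ROCK1. For S1PR1 the closest genes were UBE2S (0.14), GPX1 (0.15) and PRNP (0.15), beside an SD of 0.52. These 3 genes were also higher after exercise in all 3 horses, with changes in horse 4 of 0.21, 0.33 and 0.18, against 0.62 for S1PR1.

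ITGA9 lay closest to FEZ1 (0.16), KCNF1 (0.18) and HTR4 (0.19), beside an SD of 0.84, and all 3 were lower in horses 1 and 2 and higher in horse 4. The brightest ITGAX probe lay closest to ZBTB39 (0.13), CHML (0.14) and LILRA (0.15), beside an SD of 0.41. For CD44, OAS2 (0.09) and RBM12 (0.10) were among the 3 closest, beside an SD of 0.23. SELPLG lay closest to ACP5, CS and EEF1G (0.14 each), beside an SD of 0.51. These are the nearest of many genes over 6 arrays that share horses and slides, and they are given as a description.

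**Figure D4:**
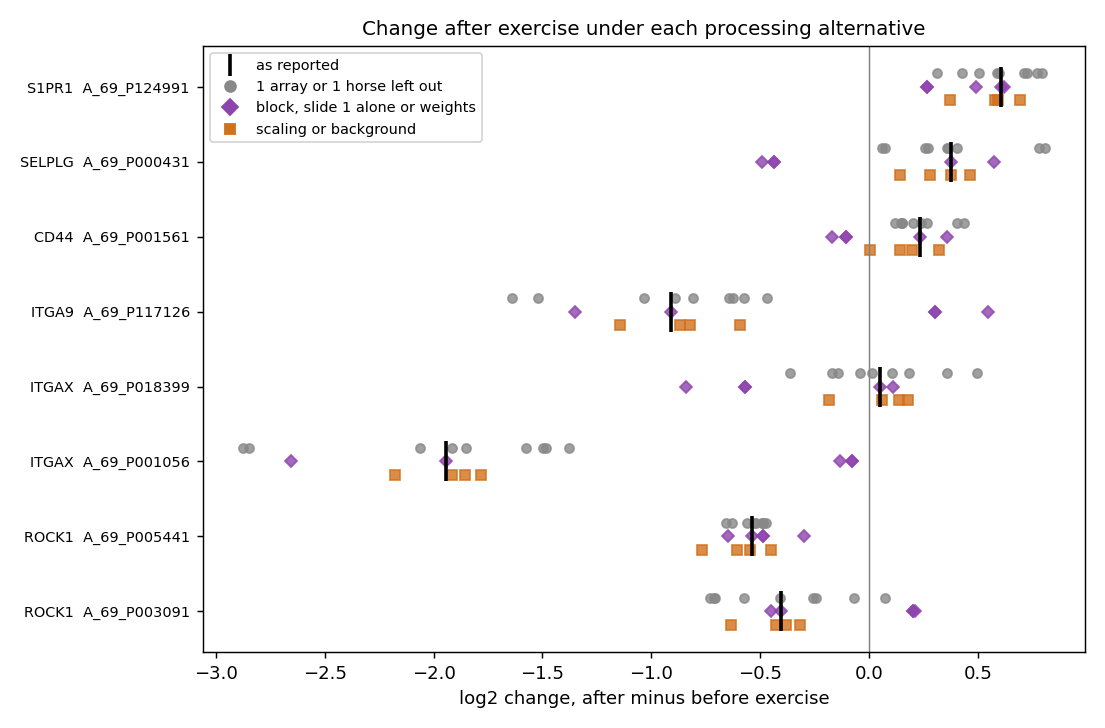
Log2 change, after minus before exercise (x axis), of 8 probes (rows) as reported (black bar) and under each alternative, with grey circles for an array or horse left out, purple diamonds for blocks, slide 1 alone or array weights, and orange squares for another scaling or background. S1PR1 stays between 0.27 and 0.80 and A_69_P005441 of ROCK1 between -0.77 and -0.30, while SELPLG, CD44 and ITGA9 have the other sign with slide as a block.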

How the data were processed

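Leukocyte RNA of 3 horses was hybridised with Cy3 to 6 arrays. The authors deposited each array's processed signal, a background-subtracted intensity from Agilent Feature Extraction 10.10.1.1 that was not normalized between arrays, per the file headers. Here the deposited signal was put on the log2 scale, less the array's 75th percentile (control spots aside), spots with outlier flags (67 to 169 an array) were left out, and probes well above background on at least 3 arrays were kept (29571 of 43603). Each listed gene is represented by its brightest kept probe. Groups were compared with limma 3.58.1 in R 4.3.3 (Benjamini-Hochberg over all probes, threshold 0.05). The fits were tested on simulated arrays drawn independently and with no slide difference, which does not cover the slides of these arrays. Names came from RefSeq transcripts in the TB-T2T table, which matched 1979 probes to 870 genes. Horse numbers in the labels pair the arrays, and deviations of same-numbered arrays correlated at 0.36, 0.40 and 0.23. Precision is limited by the 6 arrays. The 6 genes and all lists were chosen with earlier results of these data known. Named are the 6 genes with every probe, up to 4 others of each list by p, the measured markers and the 3 nearest genes, of which 1 is not reported here. Alternatives changed the background correction (normexp, offset 50, on the median signal), scaling, filter, flags, blocks, weights, arrays and horses. No probe sequence or coordinate was used here.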

Additional observations from a re-analysis of the deposited data

How the results depend on the processing

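Of 380 alternative values for the changes of the 17 probes, 340 moved by less than the SD between arrays of a group (pooled over both groups, for each probe) and 40 by more. Part of the 340 was fixed in advance. Another filter on dim probes or the horse block leaves a kept probe's change as it is, and keeping outlier flags altered none of the 17. The count of 340 is thus no measure of stability. S1PR1 kept its sign in the alternatives run (0.27 with slide as a block to 0.80 without the horse 2 array after exercise), as did 4 ROCK1 probes. SELPLG, CD44, ITGA9 and A_69_P001057 of ITGAX had the other sign with slide as a block, in slide 1 alone and with horse and slide blocked. In the last of these SELPLG had -0.49, CD44 -0.17 and ITGA9 0.55. By design, slide as a block and slide 1 alone give the same estimate, and blocking horse and slide gives the change of horse 4 itself. Their agreement is thus no separate support. All of these settings rest on the horse 4 array before exercise as the only array of its group on slide 1. The 5 like ITGAX probes had the other sign in 8 or 9 alternatives each, and A_69_P003091 of ROCK1 in 4.

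After against before exercise, limma called 0 probes as reported and 0 with the replicate block (horse), where 1798 had an unadjusted p under 0.05. It called 132 with slide as a block, 122 in slide 1 alone and 117 with the replicate block and slide, most of them higher after exercise (127, 120 and 113), and 1638 with array weights, most of them lower (1501). Leaving out single arrays or horses gave 0 to 595 calls, with 595 without the horse 4 array before exercise and 20 without horse 4. Of the 14 listed genes, 2 were called with array weights (ROCK1 and ITGA9) and 0 to 1 with an array or horse left out (ITGA9, without the horse 4 array before exercise). The replicate block changed no other call.

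Between horses, 70 probes were called as reported, 1 with quantile scaling, with outlier flags kept and with slide as a block, 2 without the filter on dim probes, 360 with array weights, and 476 without scaling, an alternative chosen after seeing the data. With an array left out the count was 0 to 456, with 456 without the horse 4 array after exercise and 0 without either array of horse 1. The causes of these moves were not tested. Signal over background limits ITGA9, whose change rests on 1 probe because the other was not well above background on any array.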
